A study of Mus musculus with 4 samples.

Results

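The SOX transcription factors of neural precursors were followed through immunoprecipitates of 4E-T from the postnatal mouse brain. The set held 10 named genes of the 35147 in the deposited table: Sox1, Sox2, Sox3, Sox21, Sox4, Sox11, Sox5, Sox6, Sox8 and Sox9. They were chosen by symbol as SOX factors of neural stem cells and neuroblasts. All 10 were among the 17651 genes with a mean of at least 1 FPKM that were tested. FPKM is fragments per kilobase of gene, divided by a total for each library. RNA was taken from precipitates of the ventricular-subventricular zone (V-SVZ), the stem cell niche along the lateral ventricles, of CD1 mice, all wild type and aged 7 or 8 days after birth. One group was precipitated with anti-4E-T and the other with control anti-IgG, with 2 libraries per group. The titles number 2 experiments, and each holds 1 library per antibody. No genotype, drug or other treatment differed between the groups. Nothing in the labels ties the 2 experiments to different mice, so the p-values describe the spread among these libraries, part of which may be technical. No library of total V-SVZ RNA was analysed here, so a value is a level in a precipitate and not in the tissue.

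SOX proteins bind DNA through an HMG box, bend it, and act with partner factors. SOXB1 factors (Sox1, Sox2, Sox3) keep neural precursors undifferentiated, and the SOXB2 factor Sox21 acts against them. SOXC factors (Sox4, Sox11) act as neurons start to differentiate, SOXD factors (Sox5, Sox6) lack a transactivation domain of their own and modulate other SOX proteins, and SOXE factors (Sox8, Sox9, and outside the set Sox10) govern glial fates, with Sox9 also a factor of the stem cells themselves. 4E-T, encoded by Eif4enif1, binds the cap-binding protein eIF4E and holds mRNAs in a repressed state in P-bodies, which are granules of RNA and protein in the cytoplasm.

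The loci are given from RefSeq on GRCm38.p6. Sox9 lies at chr11:112782210-112787757, Sox2 at chr3:34649995-34652461, Sox8 at chr17:25565893-25570686, Sox6 at chr7:115470872-116040776 and Sox1 at chr8:12395519-12399555. Sox4 lies at chr13:28948919-28953699, Sox11 at chr12:27334268-27342718, Sox21 at chr14:118233233-118237030, Sox3 at chrX:60891366-60893430 and Sox5 at chr6:143828425-144782287. Sox5 and Sox6 span 953863 and 569905 bases, and the other members between 2065 and 8451 bases. RefSeq promoter sequences matched 8 of the 10 members, and those of 4 are printed to show the loci of 2 genes that stood higher with 4E-T when each experiment was compared within itself and of both SOXC genes, which did not pass. Each is the 250 bases before the start of the gene, 5′ to 3′ on the gene's own strand, and is DNA that is not part of the precipitated RNA. Capitals mark CCAAT (a common promoter box) and ACAAAG (a core that SOX proteins bind) on either strand, where the reverse complements read ATTGG and CTTTGT, and the motifs did not overlap.
Sox2: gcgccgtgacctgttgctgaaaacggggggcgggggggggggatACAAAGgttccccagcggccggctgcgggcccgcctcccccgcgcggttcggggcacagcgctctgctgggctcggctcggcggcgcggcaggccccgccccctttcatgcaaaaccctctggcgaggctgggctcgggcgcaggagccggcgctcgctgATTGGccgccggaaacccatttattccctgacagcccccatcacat
Sox8: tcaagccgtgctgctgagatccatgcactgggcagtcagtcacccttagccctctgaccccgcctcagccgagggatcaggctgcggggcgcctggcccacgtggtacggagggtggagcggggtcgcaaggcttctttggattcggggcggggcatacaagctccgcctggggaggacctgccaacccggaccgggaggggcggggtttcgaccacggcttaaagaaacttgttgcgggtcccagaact
Sox4: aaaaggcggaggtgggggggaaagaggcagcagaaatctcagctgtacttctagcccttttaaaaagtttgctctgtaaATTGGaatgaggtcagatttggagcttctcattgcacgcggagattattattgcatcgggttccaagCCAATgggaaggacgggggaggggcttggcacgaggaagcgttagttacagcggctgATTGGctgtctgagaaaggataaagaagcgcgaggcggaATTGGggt
Sox11: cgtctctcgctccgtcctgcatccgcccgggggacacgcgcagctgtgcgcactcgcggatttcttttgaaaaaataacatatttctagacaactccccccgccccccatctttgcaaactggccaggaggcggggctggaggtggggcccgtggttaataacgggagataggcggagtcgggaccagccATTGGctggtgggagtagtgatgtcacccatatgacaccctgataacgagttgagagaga
The stretches are chr3:34649745-34649994 on the + strand for Sox2, chr17:25570687-25570936 on the - strand for Sox8, chr13:28953700-28953949 on the - strand for Sox4 and chr12:27342719-27342968 on the - strand for Sox11. CCAAT occurred 4 times before Sox4, once each before Sox2 and Sox11 and not before Sox8, against 33.8% of 32851 RefSeq promoters of the same length with a match. ACAAAG was found only before Sox2 among these 4, against 16.5% of all promoters. GC content was 72.0% before Sox2, 65.6% before Sox8, 50.8% before Sox4 and 58.0% before Sox11, with a median of 52.4% over all promoters.

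The libraries held between 14421019 and 28749439 gene reads, recovered from the deposited values. IgG replicate 1 was the shallowest and stood apart from the rest in a way that touches every result here. Its correlation with IgG replicate 2 (Pearson's r = 0.922 across genes, log2 scale) was below that of IgG replicate 2 with 4E-T replicate 2 (0.947). Levels are given as deposited FPKM, which is per length, and as scaled CPM. Scaled CPM is recovered reads per 1e6 reads of the library after scaling by TMM (trimmed mean of M-values) over the tested genes. The totals that divide the deposited FPKM were nearly equal, at 0.898 to 1.0 relative to 4E-T replicate 1. Gene reads per such total, relative to IgG replicate 1, were 1.67 in IgG replicate 2 and 1.43 and 1.84 with 4E-T. Deposited FPKM thus puts IgG replicate 1 lower than scaled CPM does. On scaled CPM all 10 members were higher in IgG replicate 2 than in IgG replicate 1, by 1.16-fold to 2.96-fold with a median of 1.49, while 43.4% of all tested genes were higher there. Between the 4E-T replicates 5 of 10 members were higher in replicate 2, with ratios of 0.729 to 1.51. Results of the members are therefore given by experiment, and with and without that library. For the other named genes and the gene lists no fit without IgG replicate 1 is given, and values by experiment only where stated.

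In fits that took the experiment number as a block, 4E-T precipitates held more Sox9, Sox2, Sox8 and Sox6 mRNA than IgG precipitates, by 1.96-fold to 3.05-fold on deposited FPKM. Sox1 was 1.69-fold higher and Sox21, which did not pass, was at 1.61-fold. The SOXC mRNAs Sox4 and Sox11, and Sox3 and Sox5, were at 1.05-fold to 1.39-fold with overlapping groups. In the blocked limma fit of FPKM 5 of the 10 members were called higher (Sox9, Sox2, Sox8, Sox6 and Sox1). It called 0 lower, at a Benjamini-Hochberg adjusted p under 0.05. Over all tested genes it called 17.5% higher and 4.44% lower. Without the block limma called 0 members in either direction, and 0.00567% of all genes higher. Its adjusted p was 0.243 for Sox9, 0.368 for Sox2, 0.409 for Sox6, 0.416 for Sox8 and 0.504 for Sox1. At an unadjusted p under 0.05 the fit without the block gave 2 members higher (Sox9 and Sox2) and 0 lower. The shares of all genes were 11.2% and 1.78%. Without IgG replicate 1, in fits with no block, limma called 0 members on FPKM (4.86% of all genes higher and 0.889% lower), and limma-voom called 1, Sox9, higher on recovered reads (8.36% higher and 2.99% lower). Without IgG replicate 2 the counts were 6 on FPKM (13.8% of all genes higher and 6.2% lower) and 4 on recovered reads (3.53% higher and 5.12% lower). An exact permutation test of 2 libraries against 2 cannot go below 0.333, and the blocked fit leaves 1 residual degree of freedom, so its p-values rest on a spread shared across genes. On simulated data the blocked fit of FPKM called unchanged genes more often than its threshold allows, while the blocked fit of recovered reads did not. The simulation gave all genes 1 dispersion (0.04) and set no single library apart. It therefore does not show how either fit behaves with a library such as IgG replicate 1. The median log2 fold change of the members was 0.72, against 0.18 over all tested genes. The median of all genes was near 0 under both other scalings. With quantile normalization and the block 4 members were higher and 0 lower (10.4% of all genes higher and 9.23% lower), without Sox1, and the members' median was 0.37 against -0.02. On recovered reads scaled by TMM, with the block, 5 were higher and 0 lower (14.1% of all genes higher and 10.9% lower), and the medians were 0.49 and -0.07.

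**Figure D1:**
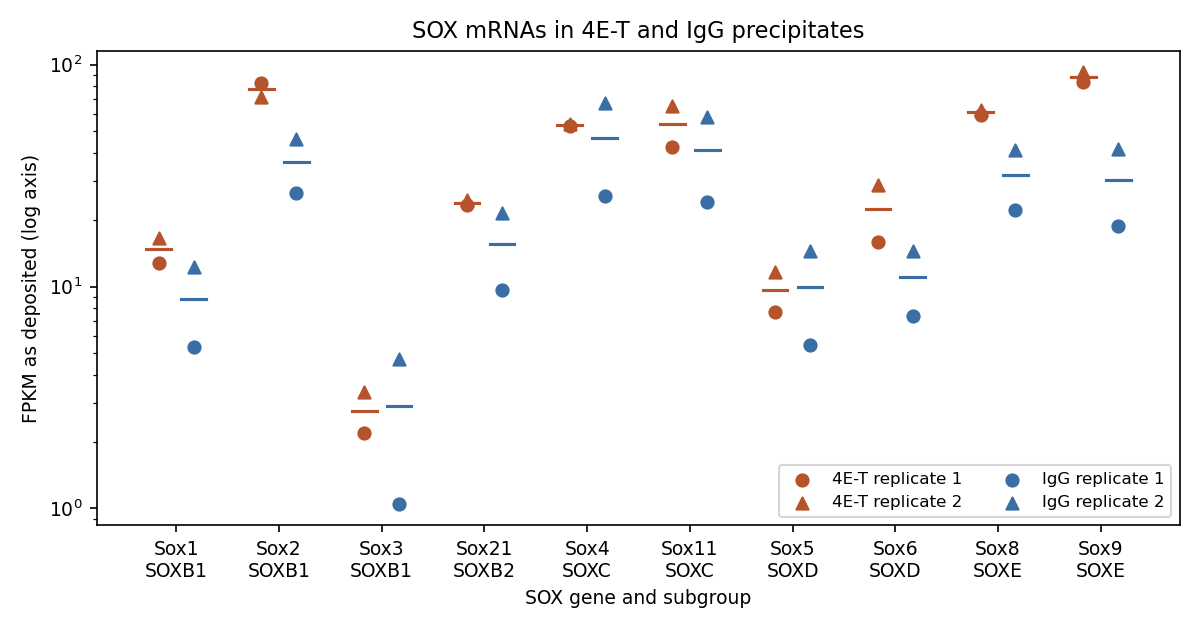
FPKM as deposited (log axis) of each SOX member in the 4 libraries, with 4E-T left of IgG, circles for replicate 1, triangles for replicate 2 and a bar at the mean of 2. Groups were apart for Sox1, Sox2, Sox21, Sox6, Sox8 and Sox9, and overlapped for Sox3, Sox4, Sox11 and Sox5.

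Sox9 had the largest fold change of the 10 members in each of the fits above with all 4 libraries. This SOXE gene, a factor of neural stem cells and of astrocyte formation, had 83.3 and 92.3 FPKM in the 4E-T libraries (replicates 1 and 2, as throughout), against 18.8 and 41.7 FPKM in the IgG libraries. Each 4E-T library was above each IgG library, and these levels rested on 8103 and 8738 reads with 4E-T and on 1638 and 3744 reads with IgG. The log2 fold change of Sox9 on the log2(FPKM + 1) scale was 1.61 (SE 0.30, blocked limma fit, adjusted p = 4.28e-06), and without the block its adjusted p was 0.243. On recovered reads it was 1.37 (SE 0.19, blocked limma-voom, adjusted p = 8.89e-05). Without IgG replicate 1, in a fit with no block, Sox9 was at 1.08 on recovered reads (limma-voom adjusted p = 0.03) and at 1.06 on FPKM (limma adjusted p = 0.231).

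Sox8, a SOXE gene expressed in glial precursors, had 59.5 and 62.6 FPKM with 4E-T against 22.1 and 41.3 FPKM with IgG. The groups did not overlap, and on FPKM the 4E-T libraries lay closer together than the IgG libraries. On scaled CPM the SD of 2 libraries was similar, at 13.8 with 4E-T and 15.1 with IgG. Sox8 had a log2 fold change of 0.99 (SE 0.30, blocked limma fit, adjusted p = 0.0074), and 0.72 on recovered reads (adjusted p = 0.00601). Without IgG replicate 1 it was at 0.55 and did not pass (unblocked limma fit, adjusted p = 0.607). Sox9 was thus above Sox8 with 4E-T, at FPKM ratios of Sox9 to Sox8 of 1.40 and 1.47, and at 0.849 and 1.01 with IgG. A ratio of this kind within a library does not depend on how the libraries are scaled.

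Among the SOXB genes Sox2 showed the largest difference. Sox2, a factor that maintains neural stem cells, had 82.9 and 71.6 FPKM with 4E-T against 26.5 and 46.4 FPKM with IgG. All 4E-T values were above all IgG values. The log2 fold change was 1.11 (SE 0.30, blocked limma fit, adjusted p = 0.00242), against 0.84 on recovered reads (adjusted p = 0.00327) and 0.72 without IgG replicate 1 (unblocked limma fit, adjusted p = 0.48). Sox1, a close relative of Sox2 in precursors, had 12.8 and 16.5 FPKM with 4E-T against 5.35 and 12.3 FPKM with IgG. The gap between the nearest libraries of the groups was small, at 12.8 FPKM with 4E-T and 12.3 with IgG. Sox1 had a log2 fold change of 0.76 (SE 0.26, blocked limma fit, adjusted p = 0.0212), passed on recovered reads at 0.54 (adjusted p = 0.0333), and missed the threshold in the blocked fit of quantile normalized values (0.44, adjusted p = 0.111). It was at 0.22 without IgG replicate 1 (unblocked limma fit, adjusted p = 0.834).

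Sox3, the X-linked SOXB1 gene, was the lowest member, with 2.18 and 3.34 FPKM with 4E-T against 1.05 and 4.73 FPKM with IgG. The IgG libraries enclosed both 4E-T libraries, and the reads numbered 106 and 158 with 4E-T against 46 and 212 with IgG. Its log2 fold change was 0.12 on FPKM (SE 0.26, blocked limma fit, adjusted p = 0.821) and -0.21 on recovered reads (adjusted p = 0.672). Sox21, the SOXB2 gene, had 23.2 and 24.5 FPKM with 4E-T against 9.65 and 21.4 FPKM with IgG. Its groups did not overlap, but it did not pass with the block (log2 fold change 0.69, SE 0.28, limma adjusted p = 0.0582) or on recovered reads (0.44, adjusted p = 0.0922), and was at 0.15 without IgG replicate 1.

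The SOXC mRNAs were abundant in every precipitate. Sox4, which promotes neuronal differentiation together with Sox11, had 53.1 and 54.1 FPKM with 4E-T against 25.7 and 67.2 FPKM with IgG. Both 4E-T values lay between the IgG values. Its log2 fold change was 0.35 (SE 0.30, blocked limma fit, adjusted p = 0.453), 0.10 on recovered reads and -0.32 without IgG replicate 1 (unblocked limma fit, adjusted p = 0.808). Sox11, a marker of neuroblasts, had 42.7 and 64.9 FPKM with 4E-T against 24.1 and 58.2 FPKM with IgG. The groups overlapped, since 4E-T replicate 1 was below IgG replicate 2. The log2 fold change of Sox11 was 0.48 (SE 0.30, blocked limma fit, adjusted p = 0.27), 0.21 on recovered reads and -0.14 without IgG replicate 1 (unblocked limma fit, adjusted p = 0.928). The FPKM ratio of Sox9 to Sox11 was 1.95 and 1.42 with 4E-T against 0.78 and 0.716 with IgG. The ratio of Sox9 to Sox4 was 1.57 and 1.71 with 4E-T against 0.729 and 0.62 with IgG. In every 4E-T library Sox9 was thus above both SOXC mRNAs, and in every IgG library below both. Of 10 such ratios computed, 7 were apart with 4E-T higher, and 3 overlapped (Sox2 to Sox1, Sox2 to Sox3 and Sox4 to Sox11). The pairs were chosen after the values were seen, and several set a called member over an uncalled gene. Such ratios restate the fold changes of the same data and are no separate support. The ratio of Sox4 to Sox11 was 1.24 and 0.833 with 4E-T against 1.07 and 1.15 with IgG.

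**Figure D2:**
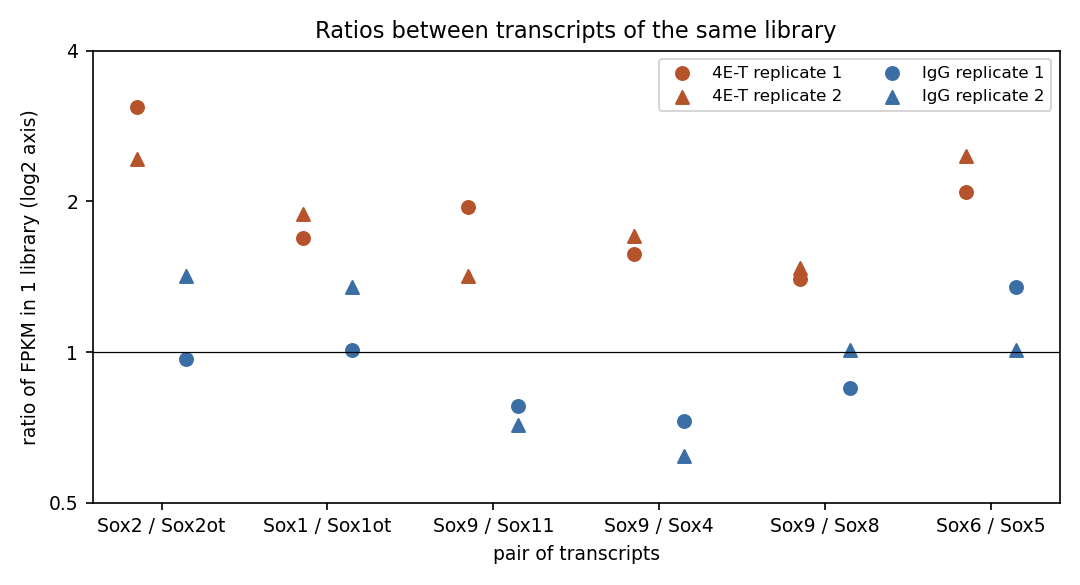
Ratio of FPKM between 2 transcripts of the same library (log2 axis), with 4E-T left of IgG and circles and triangles for replicates 1 and 2. The 6 pairs shown were chosen after the values were seen from 10 computed, and in each both 4E-T libraries lay above both IgG libraries, as they did in 7 of the 10.

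Of the SOXD genes Sox6 passed with the block and Sox5 did not, and the difference between them was not tested. Sox6, expressed in precursors and in the oligodendrocyte lineage, had 15.9 and 28.6 FPKM with 4E-T against 7.40 and 14.5 FPKM with IgG. Its groups did not overlap, though 4E-T replicate 1 was close to IgG replicate 2. The difference of Sox6 was 0.97 on the log2 scale (SE 0.27, blocked limma fit, adjusted p = 0.00334) and 0.75 on recovered reads (adjusted p = 0.00375). Sox6 was at 0.53 without IgG replicate 1 (unblocked limma fit, adjusted p = 0.543). Sox5 had 7.64 and 11.6 FPKM with 4E-T against 5.47 and 14.4 FPKM with IgG, and the IgG values enclosed both 4E-T values. Sox5 was at a log2 fold change of 0.06 on FPKM (SE 0.26, blocked limma fit, adjusted p = 0.907) and -0.21 on recovered reads (adjusted p = 0.387). The FPKM ratio of Sox6 to Sox5 was 2.09 and 2.46 with 4E-T against 1.35 and 1.01 with IgG.

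**Figure D3:**
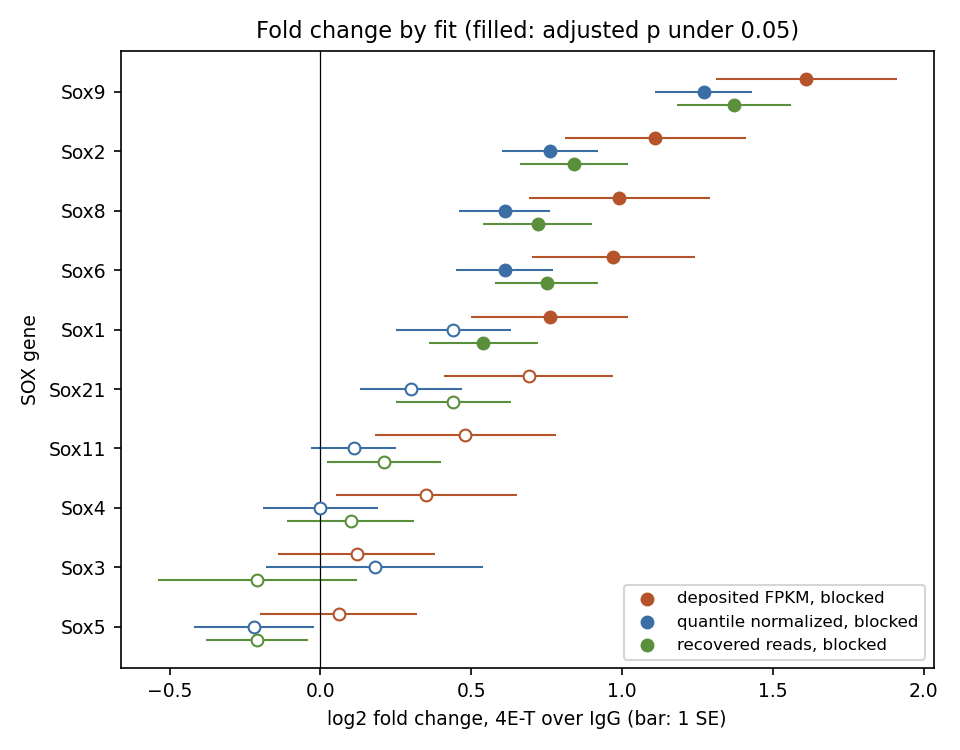
Log2 fold change of 4E-T over IgG for each member in 3 fits with the experiment as a block, with bars of 1 SE and filled points where the adjusted p was under 0.05. Sox9, Sox2, Sox8 and Sox6 were filled in each of the 3, and Sox1 in all but the quantile normalized fit.

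By mean FPKM the order with 4E-T was Sox9, Sox2, Sox8, Sox11, Sox4, Sox21, Sox6, Sox1, Sox5 and Sox3, from 87.8 ± 6.38 for Sox9 to 2.76 ± 0.821 for Sox3 (SD, n = 2). Neighbours whose ranges overlapped were Sox8 and Sox11 (61.0 ± 2.23 and 53.8 ± 15.7), Sox11 and Sox4 (53.6 ± 0.701 for Sox4), Sox21 and Sox6 (23.9 ± 0.92 and 22.3 ± 8.93), and Sox6 and Sox1 (14.7 ± 2.59 for Sox1). With IgG the order began with Sox4 at 46.5 ± 29.3, then Sox11 at 41.1 ± 24.1, Sox2 at 36.4 ± 14.1, Sox8 at 31.7 ± 13.5 and Sox9 at 30.2 ± 16.2. The IgG order ended with Sox21, Sox6, Sox5, Sox1 and Sox3, and all its neighbours overlapped except Sox1 and Sox3. Sox9 ranked 1 among the members in both 4E-T libraries, against 5 and 4 in the IgG libraries.

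Within experiment 1 the 4E-T library was above the IgG library for 10 of 10 members on scaled CPM, against 44.2% of all tested genes, with a median log2 ratio of 0.72 for the members and -0.08 for all genes. Within experiment 2 it was above for 7 of 10, against 49.4% of all tested genes, with medians of 0.20 and -0.01. Sox9 was 3.21-fold higher in experiment 1 and 2.05-fold in experiment 2. Sox2 was 2.26-fold and 1.42-fold higher, and Sox8 1.94-fold and 1.40-fold. Sox6 was the exception among the called members, with 1.56-fold in experiment 1 and 1.81-fold in experiment 2. Sox3 and Sox4 were both at 1.49-fold in experiment 1, and at 0.653-fold and 0.743-fold in experiment 2. Groups did not overlap, with 4E-T higher, for 6 of 10 members on FPKM (32.6% of all tested genes) and for the same number on scaled CPM (25.8%), and with 4E-T lower for 0 members (8.13% and 23.1%).

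**Figure D4:**
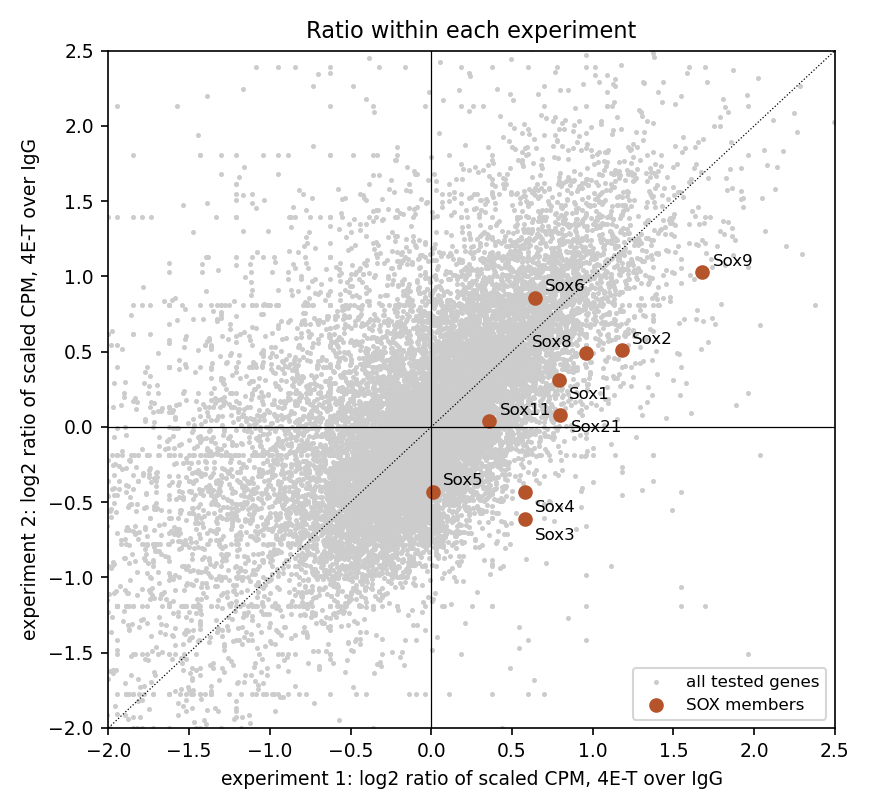
Log2 ratio of scaled CPM, 4E-T over IgG, in experiment 1 (x axis) and experiment 2 (y axis), with grey points for tested genes with reads in all libraries and the diagonal dotted. The axes leave out 740 of 17347 genes; all members but Sox6 lie under the diagonal, with Sox9 farthest out at 1.68 and 1.03.

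Long non-coding RNAs overlap several members, and whether reads were counted by strand is not stated in the labels, so reads shared with them cannot be told apart. Sox2 lies within Sox2ot, and Sox1 within Sox1ot. Sox2ot had 26.8 and 29.5 FPKM with 4E-T against 27.3 and 32.7 FPKM with IgG, so the 4 libraries lay close together on FPKM. On scaled CPM it had 92.8 and 86.3 with 4E-T against 131 and 104 with IgG, with the groups apart. The log2 fold change of Sox2ot was -0.09 (SE 0.29, blocked limma fit, adjusted p = 0.889). It was -0.49 in the blocked fit of quantile normalized values (adjusted p = 0.026) and -0.38 on recovered reads (blocked limma-voom, adjusted p = 0.0978). The FPKM ratio of Sox2 to Sox2ot was 3.09 and 2.43 with 4E-T against 0.968 and 1.42 with IgG. Sox1ot had 7.60 and 8.71 FPKM with 4E-T against 5.31 and 9.12 FPKM with IgG, and a log2 fold change of 0.19 (blocked limma fit, adjusted p = 0.662). The ratio of Sox1 to Sox1ot was 1.69 and 1.89 with 4E-T against 1.01 and 1.35 with IgG. Both non-coding RNAs were chosen after their values were seen. Sox6os had 5 reads or fewer in each library, and Sox21 overlaps the unnamed gene model Gm4675.

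Of the 10 other SOX genes of the mouse, 8 were in the table and 6 were tested. With the block 1 was higher and 1 lower on FPKM, against 17.5% and 4.44% of all tested genes. On recovered reads 1 was higher and 2 lower, against 14.1% and 10.9%. Sox10, the SOXE gene of the oligodendrocyte lineage, had 47.3 and 51.1 FPKM with 4E-T against 14.9 and 31.1 FPKM with IgG, with no overlap. Its log2 fold change was 1.15 (SE 0.29, blocked limma fit, adjusted p = 0.00111), so all 3 SOXE genes were called higher. On scaled CPM Sox10 was 2.3-fold higher in experiment 1 and 1.52-fold in experiment 2. Sox13, of the SOXD group, had 10.1 and 10.9 FPKM with 4E-T against 5.12 and 8.81 FPKM with IgG and did not pass (0.57, adjusted p = 0.092). Sox17 and Sox18, SOXF genes of endothelium, lay at the other end. Sox17 had 0.918 and 1.27 FPKM with 4E-T against 3.94 and 1.41 FPKM with IgG, or -0.73 on the log2 scale (blocked limma fit, adjusted p = 0.0451), and did not pass with quantile normalization and the block (-0.88, adjusted p = 0.123). Sox18 had 2.83 and 3.53 FPKM with 4E-T against 7.48 and 3.81 FPKM with IgG, and -0.62 (adjusted p = 0.0562). On scaled CPM the log2 ratio of Sox17 was -2.57 in experiment 1 and -0.27 in experiment 2, and that of Sox18 -1.87 and -0.22 in the same order, and IgG replicate 1 held the highest level of both.

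Proteins reported to act with SOX factors on DNA were measured as a list of 13, all tested. With the block 6 were higher and 0 lower on FPKM, against 17.5% and 4.44% of all tested genes. On recovered reads 6 were higher and 1 lower, against 14.1% and 10.9% of all tested genes. The list's medians were 0.54 on FPKM (0.18 over all genes) and 0.26 on recovered reads (-0.07 over all genes). The 2 largest log2 fold changes were those of Chd7, a chromatin remodeller that binds Sox2, and Pou3f4, a POU factor of the kind that pairs with SOXB1 proteins. Chd7 had 43.2 and 42.3 FPKM with 4E-T against 13.7 and 22.9 FPKM with IgG (log2 fold change 1.22, blocked limma fit, adjusted p = 0.000431). Pou3f4 had 47.3 and 37.6 FPKM with 4E-T against 13.3 and 25.5 FPKM with IgG (1.15, adjusted p = 0.000998). Both had every 4E-T library above every IgG library. On scaled CPM Chd7 was 2.28-fold higher in experiment 1 and 1.7-fold in experiment 2, and Pou3f4 2.58-fold and 1.36-fold. The 2 smallest were Ctnnb1, which encodes beta-catenin (-0.19, adjusted p = 0.737), and Nfia, a gliogenic factor that works with Sox9 (-0.29, adjusted p = 0.54). Nfia was called lower on recovered reads (-0.58, blocked limma-voom, adjusted p = 0.0273).

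Genes reported as SOX targets in neural precursors were measured as a second list. Of 11 listed, 10 were tested. With the block 1 was higher and 0 lower on FPKM (median 0.03), and 1 higher and 1 lower on recovered reads (median -0.26). Over all tested genes 17.5% were higher and 4.44% lower on FPKM (median 0.18). On recovered reads those shares were 14.1% and 10.9% (median -0.07). Hes5, a Notch effector that holds precursors undifferentiated, had 94.0 and 91.9 FPKM with 4E-T against 35.5 and 52.9 FPKM with IgG, with no overlap (log2 fold change 1.08, blocked limma fit, adjusted p = 0.00358). On scaled CPM it was 1.91-fold higher in experiment 1 and 1.6-fold in experiment 2. Pdgfra, a receptor of oligodendrocyte precursors, had a log2 fold change of 0.59 (adjusted p = 0.139). Tubb3, the neuronal tubulin that SOXC factors activate, had 119 and 174 FPKM with 4E-T against 112 and 267 FPKM with IgG, with overlap. Its log2 fold change was -0.26 on FPKM (adjusted p = 0.619) and -0.54 on recovered reads (blocked limma-voom, adjusted p = 0.0348). Nr2e1, a nuclear receptor of stem cells, was at -0.06 (adjusted p = 0.919).

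Cell type markers were measured in the same precipitates and stand beside the SOX values. Every marker of the 8 lists was tested, and none was at 0 reads in any library. Over all tested genes the blocked fits called 17.5% higher and 4.44% lower on FPKM. They called 14.1% higher and 10.9% lower on recovered reads. Of 7 stem cell and astrocyte markers, 0 were called in either direction on FPKM with the block, and 0 higher and 4 lower on recovered reads. Their summed scaled CPM ran between 1530 and 2470 with 4E-T and between 1950 and 4190 with IgG. Of 6 transit-amplifying precursor markers 4 were higher in both fits (Mki67, Top2a, Gsx2 and Dlx2), with sums of 1760 and 1090 with 4E-T against 803 and 748 with IgG. Of 6 neuroblast markers 1 (Dlx5) was higher in both fits and 1 (Tubb3) was lower on recovered reads, where 1 of the 6 was above 0, with sums of 1130 in each 4E-T library against 1230 and 1460 with IgG. Of 7 oligodendrocyte markers 1 (Olig2) was called higher and 1 lower on recovered reads, with sums of 1950 and 2320 with 4E-T against 2240 and 3920 with IgG. Olig2, a lineage factor, had 79.2 and 76.4 FPKM with 4E-T against 25.6 and 50.1 FPKM with IgG.

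Markers of other cells gave mostly lower calls, where 14.1% of all tested genes were higher and 10.9% lower on recovered reads with the block. Of 7 endothelial and mural markers 0 were higher and 4 lower on recovered reads with the block (1 lower with quantile normalization and the block). Their sums were 182 and 252 with 4E-T against 589 and 321 with IgG. Their median log2 ratio on scaled CPM was -2.24 in experiment 1, which holds IgG replicate 1, and -0.43 in experiment 2. The lists of 4 ependymal markers (2 lower, sums of 79.4 and 68.3 with 4E-T against 121 and 129 with IgG) and 5 microglial markers (3 lower, sums of 377 and 376 with 4E-T against 471 and 711 with IgG) had 0 higher. Of 4 medium spiny neuron markers 1 was higher and 0 lower, with sums of 594 and 822 with 4E-T against 458 and 817 with IgG. The part of cell makeup in the SOX differences was not tested. In such bulk precipitates the number of cells of a type, RNA per cell and recovery of an RNA with each antibody cannot be told apart. The SOX members themselves summed to 1640 and 1700 scaled CPM with 4E-T against 949 and 1440 with IgG.

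**Figure D5:**
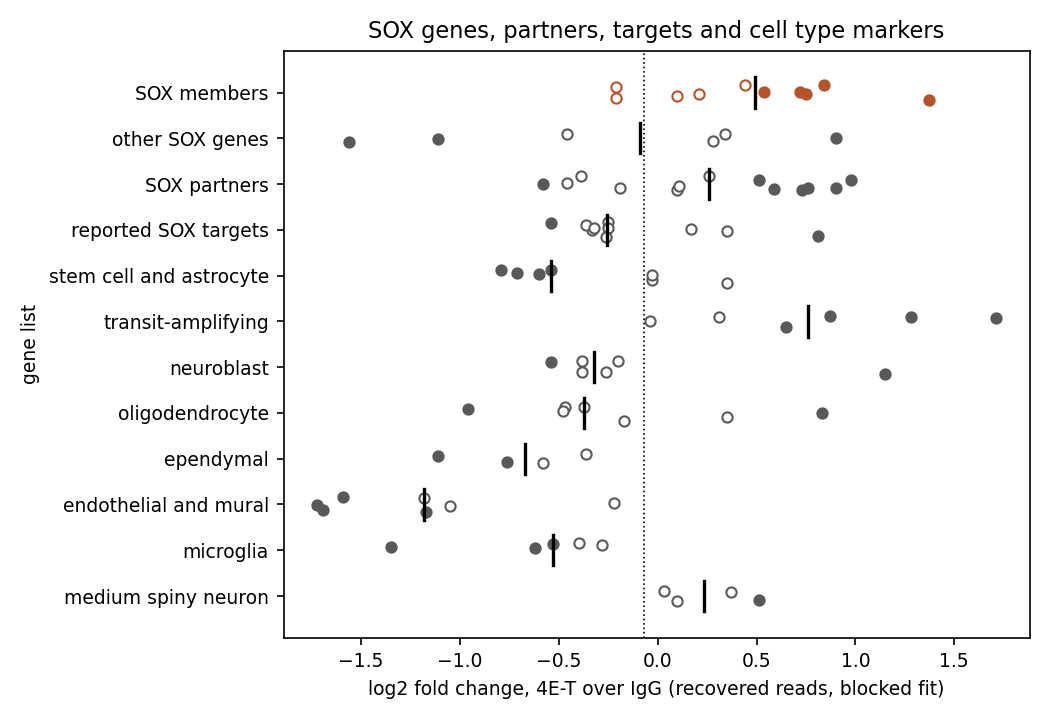
Log2 fold change of 4E-T over IgG on recovered reads (blocked limma-voom) for each tested gene of the SOX members, other SOX genes, SOX partners and targets and the cell type marker lists, filled where the adjusted p was under 0.05, with a bar at each median. The dotted line is the median of all tested genes (-0.07). The SOX members' median is 0.49 and that of endothelial and mural markers -1.18. On scaled CPM the endothelial and mural median log2 ratio was -2.24 in experiment 1 and -0.43 in experiment 2.

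Genes with the pattern most like each member were sought by Euclidean distance over the 4 libraries of log2(FPKM + 1) centred within each gene, among genes with a mean FPKM within 2-fold. Pou3f4 was nearest to Sox2 of 2321 candidates (distance 0.116), and Madd nearest to Sox5 of 5853 (0.0145). Pfkm was nearest to Sox11 (0.0419), Rnf10 to Sox4 (0.185), Tada3 to Sox6 (0.0778) and Mybbp1a to Sox8 (0.103). Ano8 was nearest to Sox21 (0.0462) and Acot11 to Sox3 (0.156). Sox9 had the most distant nearest gene of the members, Usp8 at 0.296, and also the fewest candidates (2237). Usp8 had 40.4 and 53.1 FPKM with 4E-T against 10.3 and 18.4 FPKM with IgG. The second nearest gene to Sox9 was the BAF subunit gene Smarcc2 at 0.317. The likeness rests on 4 libraries and is a description only.

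By the authors' deposited table, 4 of the 10 members passed an adjusted p of 0.05, all higher, against 10.7% called higher and 2.61% lower of the 22881 genes to which it gives an adjusted p. By the authors' deposited table the log2 fold change was 1.63 for Sox9 (SE 0.31, adjusted p = 9.74e-06 by DESeq2), 1.11 for Sox2 (adjusted p = 0.00557), 1.02 for Sox6 (adjusted p = 0.00247) and 0.99 for Sox8 (adjusted p = 0.0108). In the authors' deposited table Sox1 stood at an adjusted p of 0.0543, Sox21 at 0.123, and Sox11, Sox4, Sox3 and Sox5 between 0.282 and 0.933.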

How the data were processed

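RNA precipitated with anti-4E-T or anti-IgG was made into libraries with the MAGNA RIP, SMART-Seq v4 Low Input and Nextera XT kits, per the labels' protocols. The submitters' processing notes list, with no role or order, STAR 2.6.0c, DESeq2 1.26.0, HTSeq 0.6.1p2, FastQC 0.11.5 and Trim Galore 0.5.0, and the build mm10. How strand was handled in counting, and the annotation release, are not stated there. The deposited table, made by the authors, holds 35147 genes with FPKM values per library. Beside them it holds the authors' mean signal (normalised counts), log2 fold change with its SE, test statistic (a score), p-value with its adjusted p-value, and linear fold ratio, per the file headers.

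Log2(FPKM + 1) was tested with limma 3.58.1 (R 4.3.3; trend and robust, two-sided) on the 17651 genes with a mean of at least 1 FPKM, with Benjamini-Hochberg adjustment over all of them. A fold change on this scale understates the change of low genes. Whole reads were recovered from the steps of the FPKM values and the mean signal: 100% of 140588 values came out whole within 0.01 reads. Those reads, scaled by TMM over the tested genes (trims of 0.3 and 0.05), were tested with limma-voom as an alternative added after the data were seen. The fitting was checked on simulated data with 1 dispersion (0.04) for all genes and no single library set apart. There the blocked fit of FPKM made more false calls than its threshold allows and the blocked fit of recovered reads did not. Both missed most of the smaller changes. Library depth was 23006357 and 28749439 gene reads with 4E-T, and 14421019 and 24780150 with IgG; reads without molecular identifiers are not independent molecules.

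The sample titles give both antibodies the same experiment numbers, read here as shared batches. Same-numbered libraries deviated together from their group means. The correlation across genes was 0.672 on deposited FPKM and 0.491 after quantile normalization. Fits with that number as a block are therefore given beside the unblocked main fit. The study's design text states no block.

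The SOX members and all gene lists were chosen with earlier results of these data known. All members are named. For the other SOX genes, partners and targets, the 2 highest and the 2 lowest in the blocked fit are named. Ratios between transcripts and the further markers named were chosen after their values were seen. Promoters, loci and overlapping genes came from RefSeq tables of GRCm38.p6, where Sox3 and Sox9 were among the genes not matched to a promoter. The gene nearest to Sox1 is not reported here.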

Additional observations from a re-analysis of the deposited data

Results flagged for a closer look

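The log2 ratio of 4E-T over IgG had opposite signs in the 2 experiments for Sox3 and Sox4, and for Sox5 was level in experiment 1 and below 0 in experiment 2, with 1 library of each antibody in each experiment, and the difference between experiments was not tested. On scaled CPM the log2 ratio of Sox3 was 0.58 in experiment 1 and -0.61 in experiment 2, and Sox3 rested on 46 to 212 reads per library. The SOXC gene Sox4 had 0.58 in experiment 1 and -0.43 in experiment 2, from 2604 to 6999 reads per library. Sox5 had 0.01 in experiment 1 and -0.43 in experiment 2. In each of the 3, IgG replicate 2 held the highest scaled CPM of the 4 libraries.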

How the results depend on the processing

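With all 4 libraries and no block 0 members were called higher. The replicate block gave 5 (17.5% of all tested genes). With the block the count was also 5 with a pseudocount of 0.1 (against 17.3% of all genes), and with no filter on low values (against 7.67%). It was 5 on recovered reads with TMM and the block (against 14.1%), and 4 with quantile normalization and the block. Members called lower numbered 0 in all 17 alternatives. Quantile normalization moved the median of all genes from 0.18 to -0.02. Leave-one-out fits, in which the lone library of an antibody was assumed to vary like the other antibody's, called 0 to 6 members higher on FPKM (6 without IgG replicate 2, where 13.8% of all genes were called) and 0 to 4 on recovered reads (1, Sox9, without IgG replicate 1; 4 without IgG replicate 2). The members' median ran between 0.19 without IgG replicate 1 and 1.26 without IgG replicate 2, and was 0.21 on recovered reads without IgG replicate 1. Sox9, Sox2, Sox8, Sox6, Sox1 and Sox21 stayed above 0 in 17 of 17 alternatives, with lowest values of 1.06, 0.62, 0.55, 0.47, 0.22 and 0.15. The other 4 members, never called, turned below 0 in some. Sox5 was at -0.22 with quantile normalization, with and without the block, at -0.20 on recovered reads and at -0.21 there with the replicate block. Sox3 was at -0.15 on recovered reads and at -0.21 there with the block. Over the leave-one-out fits on FPKM, Sox5 ran between -0.56 and 0.69, Sox3 between -0.62 and 0.86, Sox4 between -0.32 and 1.03 and Sox11 between -0.14 and 1.10, each lowest without IgG replicate 1. On recovered reads without IgG replicate 1, Sox5 was at -0.61, Sox3 at -0.79, Sox4 at -0.32 and Sox11 at -0.14. There Sox5 was also at -0.0 without 4E-T replicate 1 and at -0.37 without 4E-T replicate 2, and Sox3 at -0.36 without 4E-T replicate 2. The cause was not tested. Sox3 had 46 reads in its shallowest library, the fewest of any member.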
